A study of Mus musculus with 35 samples.

Results

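The genes described here are 10 transcription factors of the AP-1 and EGR families: Fos, Fosb, Fosl2, Jun, Junb, Jund, Atf3, Egr1, Egr2 and Egr3. They were taken as a named list and found through their Ensembl identifiers, each of which matched 1 mouse symbol. They are 10 of the 48709 genes in each count table, and 10 of 10 passed the filter on low counts that left 13819 genes to test. AP-1 is a dimer of leucine zipper proteins, usually 1 of the Fos family with 1 of the Jun family, and EGR proteins bind DNA through zinc fingers. Fos, Fosb, Jun, Junb, Egr1, Egr2 and Egr3 are classical immediate early genes: signalling from the T cell receptor, growth factors or cytokines raises their RNA rapidly through kinase cascades that act on factors already present, without new protein synthesis. In T cells AP-1 partners NFAT at cytokine genes, while Egr2 and Egr3 are known for restraining activated T cells. Jund is the family member usually made at a steady level, Fosl2 lacks the strong activating domain of Fos, and Atf3 is known as a stress-responsive factor that can repress its targets.

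The 35 RNA-seq libraries were made from cytotoxic T lymphocytes (CTLs), with 5 biological replicates in each of 7 groups. The cells were CD8+ T cells of OT-I mice, which carry a transgenic T cell receptor. They had been primed through CD3 and CD28 by antibody and then grown in IL-2, a growth and survival cytokine of T cells, so that every group, 0 h included, descends from previously activated cells. The first group was collected at 0 h. The other 6 were kept for 24 h in low-glucose medium that had been set to pH 7.4, to pH 7 or to pH 6.6, and 3 of these 6 also received IL-2 at 200 IU/mL. The labels name no antigen in the 24 h culture, and dead cells were removed on Ficoll before RNA was extracted. The comparisons address how acidity and IL-2 change the transcriptome of CTLs. Levels are given as CPM, the reads of a gene relative to the TMM-scaled size of its library, and the 5 values of a group are always listed from replicate 1 to replicate 5. In bulk samples of this kind, fewer cells of a type and less RNA per cell cannot be told apart. Beyond the words biological replicates, nothing in the labels says which culture or animal a numbered library came from, so p-values measure the spread between these samples.

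Total counts on genes ranged from 16721319 to 34033340 per library, and no library pair within a group agreed within sampling noise. The CD8 T cell markers were high in every library, with Cd8a between 674 and 1596 CPM and Cd3e between 373 and 631 CPM. Of the markers of other cells, 3 of 4 B cell, 4 of 6 myeloid, 1 of 3 NK and 4 of 4 erythroid or platelet genes stayed under 1 CPM in all 35 libraries, and Ms4a1, Hbb-bs and Ppbp had no count at all. The summed myeloid list lay between 5.00 and 25.8 CPM over the groups and was led by Fcer1g. The summed CD8 list was higher with IL-2 than without it at pH 7.4, at 9129 to 11573 against 2791 to 3163 CPM. At pH 6.6 this sum was lower, at 2850 to 4141 CPM with IL-2 and 2258 to 2632 CPM without. The list includes the effector gene Gzmb, which ranged from 36.7 to 9006 CPM, the widest range of its 6 genes. By gene, 1 of the 6 was higher and 3 lower with IL-2 at pH 7.4 (39.3% and 41.1% of all tested genes). Their median log2 fold change was -0.22, so the sum does not stand for most of the list. At pH 6.6 against pH 7.4, 2 were higher and 1 lower with IL-2 (35.4% and 40.9% of all). Without IL-2, 1 was higher and 5 lower (31.6% and 35.4% of all). The summed NK list was higher with IL-2 than without it, at 596 to 705 against 168 to 185 CPM at pH 7.4 and at 180 to 257 against 122 to 136 CPM at pH 6.6. In both media the sum was lower at pH 6.6, and both tested genes of the list passed as lower there. It was carried by Eomes and Klrb1c, which activated CD8 T cells also express, while Ncr1 was at 0 in 25 of 35 libraries. The summed B cell list stayed between 1.02 and 6.10 CPM. The summed CD4 list lay between 0 and 5.50 CPM. The part of these genes in the results was not tested.

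The bases just upstream of a RefSeq start of Fos, Junb and Egr2 are shown because the 3 genes differ in response. Junb was higher at pH 6.6 with and without IL-2, Egr2 was lower there without IL-2, and Fos did not pass in either. The bases were read from RefSeq promoters of build GRCm38.p6, in which 8 of the 10 genes matched an entry, all but Egr1 and Egr3. Each run holds the 150 bases before the RefSeq start in the direction of the gene, and capitals mark TGACG (the core of a cyclic AMP response element, searched on both strands, so that CGTCA is the same motif reversed) and the CArG box, the element bound by serum response factor. No 2 matches overlap. The Fos run is chr12:85473740-85473889 on the plus strand, the Junb run chr8:84978749-84978898 on the minus strand and the Egr2 run chr10:67537719-67537868 on the plus strand. None of the 3 runs lies in an exon of the GENCODE M21 annotation.
Fos: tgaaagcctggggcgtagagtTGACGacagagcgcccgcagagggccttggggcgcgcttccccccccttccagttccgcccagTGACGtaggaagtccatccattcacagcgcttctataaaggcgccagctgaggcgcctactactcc
Junb: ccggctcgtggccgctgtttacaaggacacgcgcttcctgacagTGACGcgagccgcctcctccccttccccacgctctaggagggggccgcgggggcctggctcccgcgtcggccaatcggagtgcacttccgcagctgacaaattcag
Egr2: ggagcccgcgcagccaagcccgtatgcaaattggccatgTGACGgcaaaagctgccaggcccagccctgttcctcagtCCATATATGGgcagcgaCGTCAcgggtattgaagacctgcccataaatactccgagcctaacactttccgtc
TGACG starts 129 and 66 bases before the Fos start and 106 bases before the Junb start. In the printed Egr2 run a CArG box starts 72 bases before the start, between a TGACG at 111 bases and its reverse at 55 bases. Egr2 matched several entries, and the printed run lies inside the GENCODE span of the gene. The Egr2 window at the start of that span, chr10:67535349-67535498, held 0 motifs. The other Egr2 window free of exons, chr10:67537416-67537565, held only a CArG box. Over the 32851 promoter entries of the same 150 bases, TGACG or its reverse was present in 13.3% and a CArG box in 0.916%. The EGR-type motif GCGNGGGCG (reverse included), present in 3.81% of entries, was found upstream of Fosb and of Fosl2. The Fosl2 window lies wholly in annotated exons. TGACG was also found upstream of Fosb, and its reverse upstream of Atf3. The Atf3 match covers bases 7 to 3 before the RefSeq start, and 7 bases of that window lie in annotated exons. The Atf3 window lies inside the GENCODE span of the gene. The Jun and Jund windows held none of the 3 motifs. The Jund window, chr8:70697589-70697738, belongs to a RefSeq start upstream of the GENCODE span of the gene, which begins at 70698949. The bases directly before that span were not read. Jun was higher at pH 6.6 with and without IL-2, as Junb was, although its window, also free of annotated exons, held no motif. Bases further than 150 upstream were not searched, so the absence of a motif holds only for these windows. These are matches of letters, no binding was measured, and a link between motifs and responses was not tested.

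**Figure D1:**
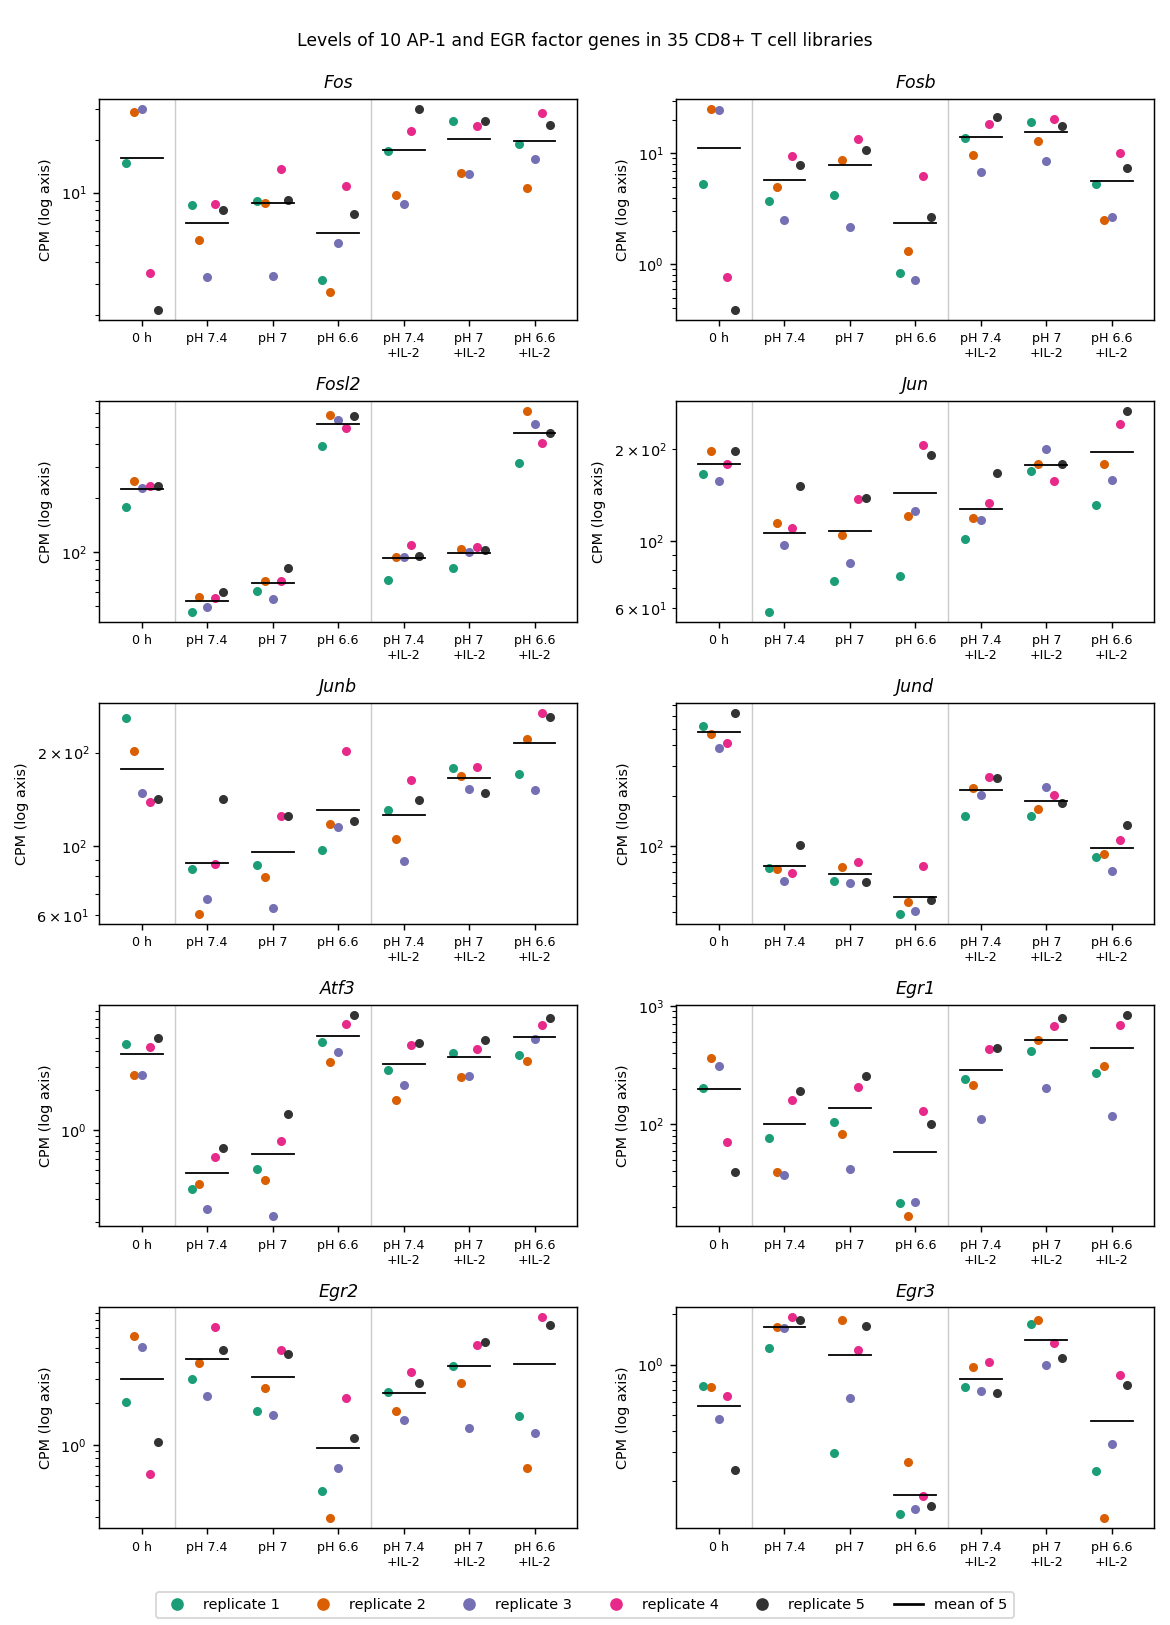
Level of each of the 10 genes in all 35 libraries, in CPM on log axes, with 1 point per library coloured by replicate and a bar at the mean of the 5 libraries. Fosl2 is highest in both pH 6.6 groups, Jund at 0 h, and Atf3 is lowest at pH 7.4 and pH 7 without IL-2.

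Fos, Fosb, Egr1 and Egr2 varied widely between the 0 h libraries, and this bears on several tests. At 0 h the Fos levels in replicates 1 to 5 were 14.7, 29, 30, 3.46 and 2.15 CPM. The Fosb levels were 5.32, 25.2, 24.6, 0.773 and 0.39 CPM, and the Egr1 levels 204, 362, 311, 71.2 and 39.6 CPM. In these 4 genes and in Junb, 0 h replicates 4 and 5 both lay under replicates 1, 2 and 3, by 1.45 times for Junb, 5.27 times for Egr1, 5.33 times for Egr2, 8.77 times for Fos and 31.6 times for Fosb on the means. After 24 h the order turned: replicate 4 or 5 was the highest library in 6 of 6 groups for Fosb, Egr1 and Egr2, and in 5 of 6 for Fos. The 24 h trait was not particular to them. It held in 6 of 6 groups for Junb and Atf3, 5 for Jun and Jund, 4 for Fosl2 and 3 for Egr3. The heat shock gene Hspa1a went the other way from Fos at 0 h, with 2.03, 0.329, 0.258, 8.14 and 9.79 CPM. Replicates 4 and 5 were also highest for Hspa1b (11.3 and 12.6 CPM), Hspb1 (up to 0.39 CPM) and, by less, Hspe1, Hsph1 and Hsp90aa1. They were the lowest for Hspa8 (1087 and 1067 CPM), and Dnajb1 did not split in this way (68.3 and 86.8 CPM). The part of these heat shock genes was not tested. The fit used for all comparisons takes the replicate number as an additive block over the 7 groups, which cannot follow such a turn, and the standard errors of these 4 genes in it were between 0.50 and 0.79 for differences between 2 groups. Their results are therefore also given from a fit without the 0 h libraries, which was added after these values had been seen.

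**Figure D2:**
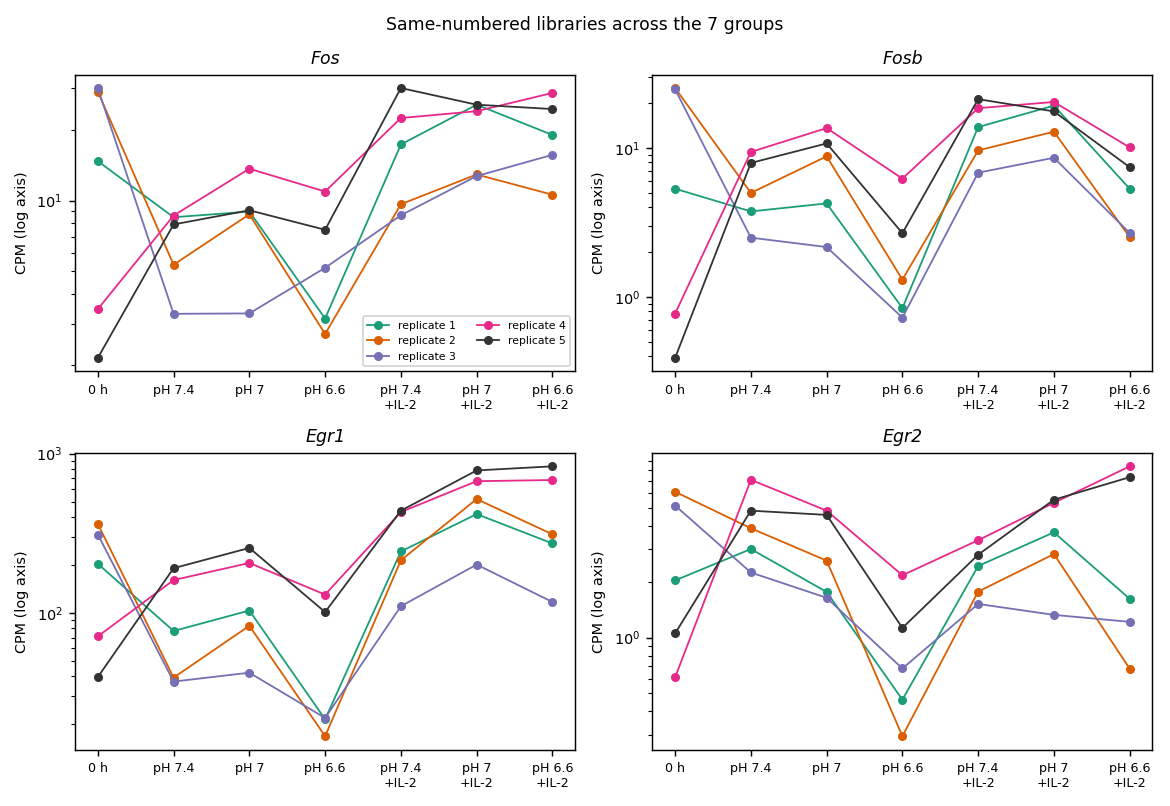
Levels of Fos, Fosb, Egr1 and Egr2 in CPM (log axes) across the 7 groups, with lines joining libraries of the same replicate number. Replicates 4 and 5 are the lowest 2 libraries at 0 h in all 4 panels and 1 of them is the highest library in 6 of 6 groups at 24 h for Fosb, Egr1 and Egr2.

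Acidity at pH 6.6 moved most of the 10 genes, in both directions. With IL-2, 4 of 10 genes were raised at pH 6.6 over pH 7.4 (Fosl2, Junb, Atf3 and Jun) and 2 lower (Jund and Egr3), where 35.4% of all tested genes were higher and 40.9% lower (edgeR quasi-likelihood F test, adjusted p under 0.05). Without IL-2, 4 genes were higher (Atf3, Fosl2, Junb and Jun) and 3 lower (Egr3, Egr2 and Jund), against 31.6% and 35.4% of all tested genes. With so many genes past the threshold, these counts alone do not set the 10 genes apart. Leaving out the 0 h libraries, 7 of 10 passed with IL-2 (background 79.5%) and 9 of 10 without it (71.8%).

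The milder acidity of pH 7 moved few of them. With IL-2 only Jun passed, as higher, where 9.15% of tested genes were higher and 9.83% lower. Without IL-2, 0 of 10 passed in the edgeR fit, where 1.36% of tested genes were higher and 0.318% lower. In that comparison 1 gene, Fosl2, fell under 0.05 before adjustment in edgeR, and 1 of 10, Fosl2 again, passed by DESeq2 (background 2.26%). Fits of the 2 groups alone called 5 of 10 with IL-2, where 35.1% of the genes tested there were called, and 4 of 10 without IL-2, where 7.32% were. In the fit without the 0 h libraries, 3 of 10 passed with IL-2 (background 28.2%) and 0 of 10 without (background 2.71%).

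IL-2 raised most of the 10 genes at every pH. At pH 7.4, 6 were higher with IL-2 (Atf3, Egr1, Jund, Fos, Fosl2 and Junb) and 1 lower (Egr3), against 39.3% and 41.1% of tested genes. At pH 7, 7 were higher (Atf3, Egr1, Jund, Fos, Junb, Jun and Fosl2) and 0 lower, against 37.6% and 39.5%. At pH 6.6, 7 were higher (Egr1, Egr2, Fos, Egr3, Jund, Junb and Jun) and 0 lower, against 13.2% and 10.6% of tested genes. Leaving out the 0 h libraries, 9, 8 and 8 of 10 passed at pH 7.4, pH 7 and pH 6.6, with backgrounds of 83.5%, 80.8% and 31.3%. The acid effect itself differed with IL-2 (the interaction) for 5 genes: it was more positive with IL-2 for Egr2 and Egr3 and more negative for Atf3, Fosl2 and Jund, against 34.3% and 32.8% of tested genes. With the 0 h group left out, Egr1 joined them, making 6 of 10 (background 72.1%).

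**Figure D3:**
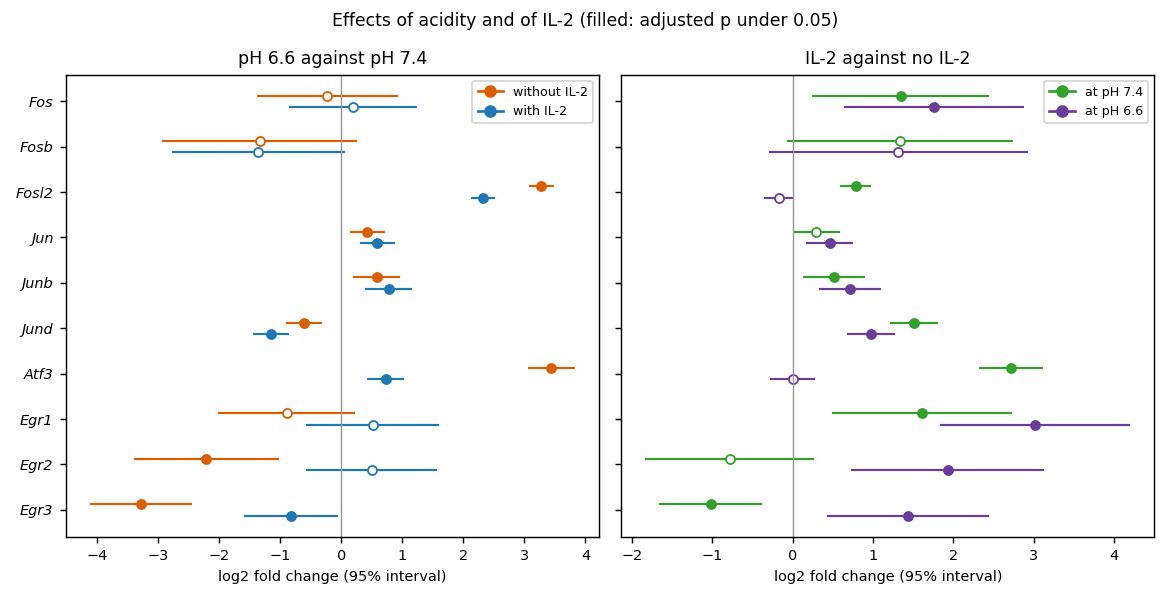
Log2 fold change of each gene with its 95% interval, on the left for pH 6.6 against pH 7.4 without and with IL-2 and on the right for IL-2 against none at pH 7.4 and pH 6.6. Filled points passed adjusted p under 0.05, and the widest intervals belong to Fosb, Egr1, Egr2 and Fos.

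Fosl2, which encodes the Fos family protein Fra-2, had the most precisely measured response to acid of the 10 genes, with the smallest standard errors. It spans chr5:32135801-32157842 on the plus strand (GENCODE M21, build GRCm38). Without IL-2 its levels at pH 7.4 were 46.3, 56.2, 49.1, 55.6 and 59.5 CPM, and at pH 6.6 they were 394, 583, 547, 492 and 575 CPM. The 2 groups were far apart in all 5 pairs, a log2 fold change of 3.27 ± 0.10 (SE), or 9.66-fold, with edgeR adjusted p = 3.97e-22. With IL-2 the levels were 69.6, 93.2, 93.5, 109.7 and 95.3 CPM at pH 7.4 and 314, 615, 522, 408 and 463 CPM at pH 6.6. Again every pH 6.6 library lay above every pH 7.4 library, by 2.32 ± 0.10 on the log2 scale, or 5.0-fold (adjusted p = 5.65e-20). The acid effect was smaller with IL-2, with a difference between the 2 log2 fold changes of -0.95 ± 0.13 (adjusted p = 1.31e-07) in 5 of 5 replicates. IL-2 raised Fosl2 at pH 7.4 (0.78 ± 0.09, adjusted p = 3.99e-09) and at pH 6.6 the groups without and with it overlapped (-0.17 ± 0.09, interval -0.35 to 0.02, adjusted p = 0.191).

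At pH 7 Fosl2 stayed close to its pH 7.4 level, at 54.5 to 81.8 CPM without IL-2 and 81.4 to 107 CPM with it. Without IL-2 all 5 pH 7 libraries lay above their pH 7.4 partners, but the difference of 0.33 ± 0.09 did not pass (adjusted p = 0.0701). It passed by DESeq2 (adjusted p = 0.0492) and in an edgeR fit of those 2 groups alone (adjusted p = 0.000988). The 0 h level was intermediate, at 178, 250.4, 227, 234 and 233 CPM. The acid groups lay above it, with log2 fold changes of 1.2 ± 0.09 without IL-2 and 1.04 ± 0.09 with it, and the pH 7.4 groups below it, at -2.07 ± 0.10 without and -1.28 ± 0.09 with IL-2, with edgeR adjusted p of at most 1.47e-11 in the 4 comparisons, which share their 0 h libraries. The order of means ran from pH 6.6 without and with IL-2 through 0 h, pH 7 and pH 7.4 with IL-2, to pH 7 and pH 7.4 without. The neighbours that did not pass were the 2 pH 6.6 groups, pH 7 and pH 7.4 with IL-2, and pH 7 and pH 7.4 without.

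Jun and Junb, the classical inducible partners of Fos, rose modestly in acid. They lie at chr4:95049034-95052222 and chr8:84974484-84978718, both on the minus strand. Jun levels without IL-2 were 58.5, 115, 97, 109.9 and 151 CPM at pH 7.4 and 76.8, 120.3, 125, 206 and 191 CPM at pH 6.6. With IL-2 they were 102, 119, 117, 133 and 167 CPM and 131, 179, 158, 241 and 267 CPM. The groups overlapped in both cases, and the pH 6.6 library was the higher of each of the 5 pairs in both. The log2 fold change was 0.42 ± 0.14 without IL-2 (edgeR adjusted p = 0.00974), which no longer passed without replicate 4 (adjusted p = 0.0843) or without the replicate block (adjusted p = 0.0925), and 0.59 ± 0.14 with IL-2 (adjusted p = 0.000423). At pH 7 with IL-2 Jun was already higher in all 5 libraries, at 169, 179, 200.4, 157 and 178 CPM, by 0.52 ± 0.14 (adjusted p = 0.0103), a call lost without replicate 2 (0.0657) or replicate 3 (0.0935) and without the replicate block (adjusted p = 0.177). Without IL-2 it was not (0.03 ± 0.14, adjusted p = 0.995).

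Junb levels without IL-2 were 84.4, 60.5, 67.6, 87.4 and 142 CPM at pH 7.4 and 97.3, 118, 116, 203 and 121 CPM at pH 6.6. With IL-2 they were 131, 105, 89.8, 163 and 141 CPM and 170.4, 222, 152, 268 and 261 CPM. The ranges overlapped, and pH 6.6 was the higher in 4 of 5 pairs without IL-2 and 5 of 5 with it. The log2 fold changes were 0.58 ± 0.19 (edgeR adjusted p = 0.00874) and 0.77 ± 0.19 (adjusted p = 0.000518), of which the first was lost without replicate 2 (0.0623) or replicate 4 (0.079). At pH 7 with IL-2 Junb was at 148 to 179 CPM, a difference of 0.43 ± 0.19 that did not pass (adjusted p = 0.109) but did without the 0 h libraries (adjusted p = 0.036).

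IL-2 raised both genes at pH 7, where no Jun or Junb library with IL-2 overlapped those without (0.78 ± 0.14 and 0.84 ± 0.19, adjusted p = 1.03e-05 and 0.00022 in edgeR). At pH 6.6 the IL-2 effects were 0.46 ± 0.14 and 0.71 ± 0.19 (adjusted p = 0.0172 and 0.00605). The Jun call at pH 6.6 was lost without replicate 2 (adjusted p = 0.0513), with the looser filter of 1 count in any library (0.0551) and without the replicate block (0.182). At pH 7.4 Junb passed with 0.51 ± 0.19 (adjusted p = 0.0146), but not without replicate 1, 2 or 4 (adjusted p = 0.0564, 0.0953 and 0.054), and Jun did not (0.29 ± 0.14, adjusted p = 0.0577). For neither gene did the difference between the acid effects with and without IL-2 pass (interaction 0.16 ± 0.20 and 0.19 ± 0.27, intervals -0.25 to 0.57 and -0.35 to 0.74).

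At 0 h Jun stood at 165, 197, 157, 179 and 197 CPM and Junb at 258, 202, 149, 139 and 142 CPM. Both were lower after 24 h at pH 7.4, with log2 fold changes of -0.81 ± 0.14 and -1.06 ± 0.19 without IL-2 and -0.52 ± 0.14 and -0.55 ± 0.19 with it (adjusted p = 7.11e-06, 1.2e-05, 0.00243 and 0.0139 in edgeR). At pH 6.6 with IL-2 neither differed from 0 h past the threshold (0.07 ± 0.14 and 0.23 ± 0.19, adjusted p = 0.66 and 0.293), and at pH 6.6 without IL-2 both were lower (-0.39 ± 0.14 and -0.48 ± 0.19, adjusted p = 0.0156 and 0.0228). The last pair of calls and the Junb call at pH 7.4 with IL-2 were fragile. Without replicate 1 the adjusted p values were 0.201, 0.34 and 0.0782, and without replicate 2 0.141, 0.124 and 0.08. Without replicate 3 the 2 Junb calls were lost as well (0.0554 and 0.074). Without the replicate block the 2 calls at pH 6.6 (0.211 and 0.081) and both calls at pH 7.4 with IL-2 (0.0669 and 0.0643) did not pass. In both genes the means ran from pH 6.6 with IL-2, 0 h, pH 7 with IL-2, pH 6.6 without, pH 7.4 with, pH 7 without, to pH 7.4 without IL-2. Of the 6 neighbouring pairs, only pH 7 with IL-2 over pH 6.6 without passed for Jun and only pH 7.4 with IL-2 over pH 7 without for Junb (adjusted p = 0.0145 and 0.0499). Of the exon bases of Jun 7.28% and of Junb 7.52% lie under genes of the other strand, Junos and Prdx2.

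Jund, the Jun family member usually kept at a steady level, behaved unlike Jun and Junb. Its 0 h levels of 522, 471, 385, 416 and 625 CPM were above every 24 h library. With IL-2 it stood at 152, 221, 201, 258 and 255 CPM at pH 7.4 and at 86.2, 89.4, 71.3, 108 and 134 CPM at pH 6.6. These groups did not overlap, a log2 fold change of -1.16 ± 0.15, or 2.23-fold lower in acid (edgeR adjusted p = 1.41e-08). Without IL-2 the levels were 74.3, 72.5, 61.6, 68.7 and 101 CPM at pH 7.4 and 39.3, 46.3, 40.6, 75.5 and 47.3 CPM at pH 6.6. Here 4 of 5 pairs fell and replicate 4 at pH 6.6 overlapped the pH 7.4 range (-0.62 ± 0.15, adjusted p = 0.000465). At pH 7 the differences from pH 7.4 were -0.21 ± 0.14 with IL-2 and -0.16 ± 0.15 without (adjusted p = 0.328 and 0.96).

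IL-2 raised Jund by 1.51 ± 0.15 at pH 7.4, 1.46 ± 0.15 at pH 7 and 0.97 ± 0.15 at pH 6.6, in 5 of 5 pairs each (edgeR adjusted p = 4.27e-11, 1.19e-10 and 7.11e-06). The acid effect was more negative with IL-2, with a difference of -0.54 ± 0.21 (adjusted p = 0.0207), in 3 of 5 replicates, and this call was lost without replicate 2, 3 or 4 (adjusted p = 0.154, 0.0563 and 0.189). It was also lost with the looser filter (adjusted p = 0.0579) and without the replicate block (adjusted p = 0.0536). Against 0 h, Jund was 2.25-fold lower at pH 7.4 with IL-2, 6.42-fold lower at pH 7.4 without it, 5.02-fold lower at pH 6.6 with it and 9.84-fold lower at pH 6.6 without it (adjusted p of at most 2.9e-08). The means ran from 0 h through pH 7.4, pH 7 and pH 6.6 with IL-2 to pH 7.4, pH 7 and pH 6.6 without it. In that order only the 2 steps from pH 7.4 to pH 7 did not pass. The gene spans chr8:70698949-70700616 on the plus strand as a single exon of 1668 bases, and 52.6% of it lies under Gm11175 of the other strand. Whether reads were counted by strand is not given in the sources used here, so reads of the 2 genes may not be separated.

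Per length of exon, which allows levels to be compared between genes, Jund was the largest of the 6 Fos and Jun genes at 0 h and not at pH 6.6. Its share was lower than at 0 h without IL-2 at pH 7.4 and pH 7 as well. Jund was at 289.9 ± 56.7 CPM per kb (mean ± SD, n = 5) at 0 h and made up 63.4% ± 4.88 of the sum of the 6 genes, while Fosl2 was at 23.2 ± 2.84 CPM per kb. At pH 7.4 with IL-2 Jund made up 53.3% ± 4.56 and Fosl2 3.93% ± 0.469 of the sum. At pH 7 with IL-2 the Jund share was 42.5% ± 4.07. Without IL-2 Jund was at 36.3% ± 3.28 and Junb at 29.9% ± 4.59 at pH 7.4. At pH 7 without IL-2 the 2 genes were at 32.4% ± 4.99 and 32.2% ± 4. At pH 6.6 with IL-2 Jund made up 21.7% ± 2.48, Fosl2 18.2% ± 5.27 and Junb 34.3% ± 2.7. At pH 6.6 without IL-2 Fosl2 made up 29.3% ± 5.5 and Jund 15.8% ± 1.91, and the lowest Fosl2 share (20%) was above the highest Jund share (17.8%). The sum itself was 455 ± 63.6 CPM per kb at 0 h. It was 126 ± 31.2 at pH 7.4 and 188 ± 45 at pH 6.6 without IL-2. With IL-2 it was 244 ± 45.1 and 270.0 ± 56.3 CPM per kb. Fos and Fosb were small contributors throughout, with Fos at 7.49 ± 3.81 and Fosb at 2.24 ± 0.957 CPM per kb at pH 7.4 with IL-2. These are RNA levels, and no protein or dimer was measured.

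**Figure D4:**
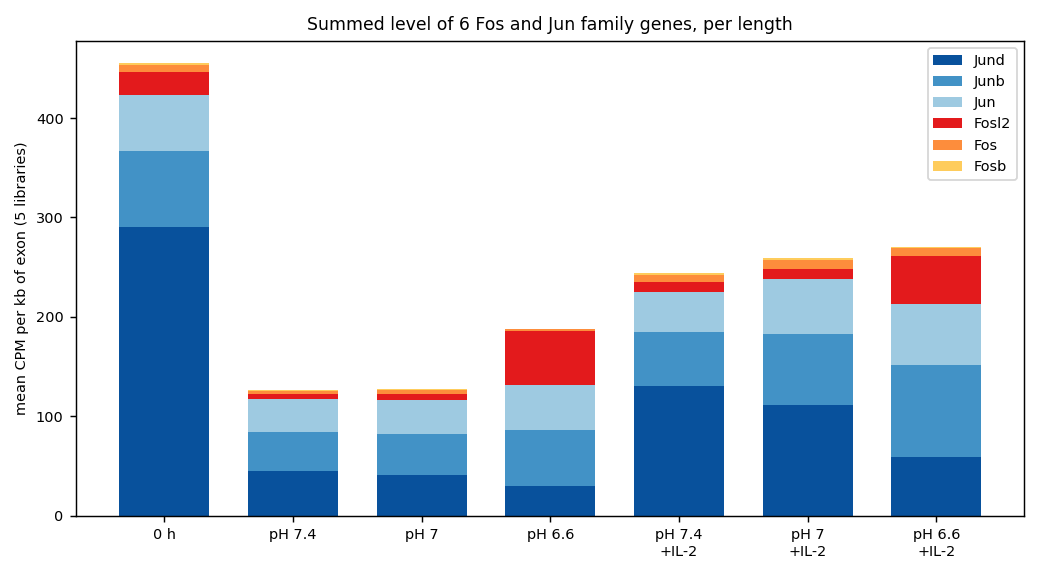
Mean level of 6 Fos and Jun family genes per kb of exon in each group, stacked from 0. Jund makes up most of the 0 h bar, and Fosl2 becomes visible as a large block only in the 2 pH 6.6 bars.

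Fos, the classical inducible member of its family, rose with IL-2. It lies at chr12:85473890-85477273 on the plus strand. Fos levels at pH 7.4 were 8.49, 5.34, 3.3, 8.63 and 7.92 CPM without IL-2 and 17.3, 9.65, 8.66, 22.4 and 30.1 CPM with it. At pH 6.6 they were 3.15, 2.71, 5.18, 10.9 and 7.51 CPM without and 19, 10.6, 15.6, 28.6 and 24.5 CPM with IL-2. IL-2 raised Fos in 5 of 5 pairs at each pH, and at pH 7.4 the groups did not overlap. The log2 fold changes were 1.34 ± 0.54 at pH 7.4, 1.2 ± 0.52 at pH 7 and 1.76 ± 0.55 at pH 6.6 (edgeR adjusted p = 0.0245, 0.0395 and 0.0199). Each call was lost when some replicate numbers were left out. At pH 7.4 this was replicate 1 or 5 (adjusted p = 0.066 and 0.0524), at pH 7 replicate 1, 2 or 3 (0.149, 0.0591 and 0.0809) and at pH 6.6 replicate 1 or 2 (0.0982 and 0.0531). The pH 7 call was also lost with the looser filter (0.0677). The same 3 effects were 1.27 ± 0.23, 1.14 ± 0.22 and 1.8 ± 0.23 without the 0 h libraries, with adjusted p of 1.64e-05, 4.53e-05 and 1.95e-06.

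Fos did not pass for acidity. At pH 6.6 against pH 7.4 its difference was -0.23 ± 0.56 without IL-2 and 0.19 ± 0.51 with it, with intervals of -1.39 to 0.93 and -0.86 to 1.23, which reach past 1 log2 unit. Without the 0 h libraries the differences were -0.26 ± 0.25 and 0.26 ± 0.21 (adjusted p = 0.35 and 0.267). At pH 7 the levels were 3.32 to 13.7 CPM without and 12.7 to 25.5 CPM with IL-2, and neither passed against pH 7.4 (0.37 ± 0.54 and 0.23 ± 0.51).

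Fosb, a close relative of Fos, stood lower at pH 6.6 in every pair. It lies at chr7:19302696-19310051 on the minus strand. Its levels without IL-2 were 3.75, 4.98, 2.5, 9.38 and 7.92 CPM at pH 7.4 and 0.841, 1.31, 0.727, 6.22 and 2.68 CPM at pH 6.6, and with IL-2 13.8, 9.61, 6.81, 18.4 and 21.2 CPM and 5.31, 2.52, 2.68, 10.1 and 7.41 CPM. The pH 6.6 library was the lower of all 5 pairs in both settings, although the ranges overlapped. In the fit of all 35 libraries the differences of -1.34 ± 0.77 and -1.36 ± 0.69 did not pass (edgeR adjusted p = 0.13 and 0.0765). Without the 0 h libraries they were -1.38 ± 0.29 and -1.34 ± 0.25 and passed (adjusted p = 0.000187 and 3.4e-05). The same held for IL-2, with which Fosb stood higher in 5 of 5 pairs at each pH: 1.33 ± 0.68, 1.10 ± 0.67 and 1.31 ± 0.78 at pH 7.4, pH 7 and pH 6.6 (adjusted p = 0.0757, 0.133 and 0.238). With the 0 h group left out, the adjusted p values were 4.12e-05, 0.000269 and 0.00127. At pH 7 Fosb lay at 2.16 to 13.6 CPM without and 8.58 to 20.3 CPM with IL-2.

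Against 0 h, the calls for Fos and Fosb changed with the libraries that entered the fit. Fos was lower at pH 7.4 and at pH 6.6 without IL-2 (-1.46 ± 0.55 and -1.69 ± 0.56, edgeR adjusted p = 0.0197 and 0.00892), but in only 3 of 5 pairs each, and in fits of the 2 groups alone adjusted p was 0.477 and 0.492. Without replicate 2 these became 0.185 and 0.143, and without replicate 3 0.213 and 0.0893. Fosb passed only at pH 6.6 without IL-2 (-2.66 ± 0.79, adjusted p = 0.00374), which was lost without replicate 2 or 3 (0.0743 and 0.0867) and with the 2 groups alone (0.512). By mean log2 CPM, Fos ran from pH 7, pH 6.6 and pH 7.4 with IL-2 through 0 h to pH 7, pH 7.4 and pH 6.6 without, and no neighbouring pair passed. Fosb ran from pH 7 and pH 7.4 with IL-2, pH 7 and pH 7.4 without, pH 6.6 with and 0 h to pH 6.6 without, and only the last step passed (adjusted p = 0.00374).

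Atf3, a stress-responsive factor encoded at chr1:191170296-191218039 on the minus strand, was raised by acid and by IL-2, and IL-2 made no detectable difference at pH 6.6. Without IL-2 its levels were 0.355, 0.392, 0.254, 0.626 and 0.727 CPM at pH 7.4 and 4.63, 3.3, 3.91, 6.38 and 7.42 CPM at pH 6.6. With IL-2 they were 2.84, 1.7, 2.22, 4.43 and 4.56 CPM and 3.7, 3.36, 4.86, 6.25 and 7.04 CPM. The groups without IL-2 did not overlap, a log2 fold change of 3.44 ± 0.19, or 10.9-fold (edgeR adjusted p = 3.71e-16), from 6 to 17 reads per library at pH 7.4. With IL-2 the acid effect was 0.73 ± 0.15, with overlapping ranges and 5 of 5 pairs higher (adjusted p = 6.24e-05). IL-2 alone raised Atf3 by 2.72 ± 0.20 at pH 7.4 and 2.5 ± 0.18 at pH 7 without overlap (adjusted p = 2.67e-14 and 4.46e-14), and at pH 6.6 the IL-2 difference was 0.00 ± 0.14 with an interval of -0.28 to 0.28. The acid effects without and with IL-2 differed by -2.72 ± 0.25 (adjusted p = 2.18e-11), in 5 of 5 replicates.

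At pH 7 Atf3 lay at 0.223 to 1.32 CPM without and 2.53 to 4.82 CPM with IL-2, and neither passed against pH 7.4 (0.45 ± 0.24 and 0.22 ± 0.15, edgeR adjusted p = 0.688 and 0.324). At 0 h it was at 4.46, 2.64, 2.62, 4.27 and 4.95 CPM, so that 24 h at pH 7.4 without IL-2 left it 8.15-fold lower (adjusted p = 2.53e-15). The pH 6.6 groups were slightly higher than 0 h (0.41 ± 0.15 without and 0.42 ± 0.15 with IL-2, adjusted p = 0.0119 and 0.0136). Both of those calls were lost without replicate 4 (adjusted p = 0.0668 and 0.0666) and without the replicate block (0.2 and 0.233), and the second also without replicate 3 (0.0766) and with the 2 groups alone (0.0551). The means ran from pH 6.6 without and with IL-2, 0 h, pH 7 and pH 7.4 with IL-2 to pH 7 and pH 7.4 without. The steps from pH 6.6 with IL-2 to 0 h and from pH 7.4 with IL-2 to pH 7 without passed, and the other 4 did not.

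Egr1, the most abundant EGR gene, rose with IL-2 at every pH. Its levels without IL-2 were 77, 39.2, 37, 161 and 191 CPM at pH 7.4 and 21.5, 16.8, 21.9, 130.3 and 101 CPM at pH 6.6. With IL-2 they were 243, 214, 110.1, 429.9 and 438 CPM and 273, 311, 117, 683 and 833 CPM. Within every 24 h group replicates 4 and 5 were the highest 2 libraries. IL-2 raised Egr1 in 5 of 5 pairs at each pH, by 1.61 ± 0.54 at pH 7.4, 2.04 ± 0.55 at pH 7 and 3.01 ± 0.58, or 8.07-fold, at pH 6.6 (edgeR adjusted p = 0.00911, 0.00162 and 0.000343). The pH 7.4 call was lost without replicate 2 (adjusted p = 0.0533) and was 1.33e-06 without the 0 h libraries.

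Between pH 7.4 and pH 6.6, Egr1 stood lower in acid in all 5 pairs without IL-2 and higher in all 5 pairs with it. In the fit of 35 libraries neither difference passed (-0.89 ± 0.55 and 0.51 ± 0.53, edgeR adjusted p = 0.151 and 0.385), nor did the interaction (1.40 ± 0.76, adjusted p = 0.105). Without the 0 h libraries all 3 passed, with -0.94 ± 0.24, 0.53 ± 0.23 and 1.46 ± 0.33 (adjusted p = 0.00141, 0.0414 and 0.000428). At pH 7 the levels were 104, 83, 42.1, 206 and 256 CPM without and 417, 519, 201, 672 and 785 CPM with IL-2. Every pH 7 library lay above its pH 7.4 partner, by 0.47 ± 0.53 and 0.90 ± 0.53, which did not pass (adjusted p = 0.983 and 0.254). Without the 0 h libraries the second did (adjusted p = 0.00509) and the first did not (0.466).

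Against 0 h, Egr1 was lower in the fit at pH 7.4 and at pH 6.6 without IL-2 (-1.69 ± 0.57 and -2.59 ± 0.59, edgeR adjusted p = 0.00927 and 0.000323), again in only 3 of 5 pairs each. In fits of the 2 groups alone the adjusted p values were 0.477 and 0.307, and the first was also lost without replicate 2 (0.117) or replicate 3 (0.143) and without the replicate block (0.195). The means of log2 CPM ran from pH 7, pH 6.6 and pH 7.4 with IL-2 through 0 h to pH 7, pH 7.4 and pH 6.6 without. Only the step from 0 h to pH 7 without IL-2 passed (adjusted p = 0.0494).

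Egr2 and Egr3, which restrain activated T cells, were low in all libraries and fell in acid when IL-2 was absent. They lie at chr10:67535475-67542188 and chr14:70077203-70082614, both on the plus strand. Egr2 levels without IL-2 were 3.0, 3.89, 2.24, 7.09 and 4.83 CPM at pH 7.4 and 0.463, 0.294, 0.681, 2.17 and 1.13 CPM at pH 6.6. With IL-2 they were 2.43, 1.77, 1.52, 3.35 and 2.8 CPM and 1.62, 0.679, 1.22, 8.38 and 7.33 CPM. Without IL-2 the groups did not overlap, and Egr2 fell by 2.21 ± 0.58 on the log2 scale, or 4.64-fold (edgeR adjusted p = 0.0014). With IL-2 the pH 6.6 library was the higher in replicates 4 and 5 and the lower in replicates 1, 2 and 3, for a difference of 0.50 ± 0.52 that did not pass (adjusted p = 0.392). The acid effects differed by 2.71 ± 0.78 (adjusted p = 0.00326), in 5 of 5 replicates.

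With IL-2 Egr2 stood lower in 5 of 5 pairs at pH 7.4, a difference of -0.78 ± 0.51 that did not pass with all libraries (edgeR adjusted p = 0.16) and did without the 0 h group (-0.84 ± 0.29, adjusted p = 0.00973). At pH 6.6 IL-2 raised Egr2 in 5 of 5 pairs by 1.93 ± 0.59 (adjusted p = 0.0166), a call lost without replicate 1 or 5 (0.0555 and 0.0906) and with the looser filter (0.0528), and kept without the 0 h libraries (8.9e-05). At pH 7 Egr2 lay at 1.64 to 4.84 CPM without and 1.33 to 5.54 CPM with IL-2, and the differences of -0.47 ± 0.50 and 0.61 ± 0.52 from pH 7.4 did not pass. At 0 h it was at 2.03, 6.11, 5.15, 0.61 and 1.05 CPM. Of the 4 comparisons with 0 h only pH 6.6 without IL-2 passed (-2.02 ± 0.60, adjusted p = 0.00348), in 3 of 5 pairs, and not without replicate 2 (0.0713) or with the 2 groups alone (0.224). The means ran from pH 7.4 without, pH 7 with, pH 7 without, pH 6.6 with and pH 7.4 with IL-2 through 0 h to pH 6.6 without, and only the last step passed (adjusted p = 0.00348).

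Egr3 had 3 to 8 reads per library at pH 6.6 without IL-2 and 39 to 46 at pH 7.4, so counting error limits it. Its levels without IL-2 were 1.26, 1.69, 1.65, 1.92 and 1.84 CPM at pH 7.4 and 0.126, 0.261, 0.136, 0.164 and 0.141 CPM at pH 6.6. With IL-2 they were 0.73, 0.972, 0.698, 1.03 and 0.677 CPM and 0.231, 0.12, 0.335, 0.863 and 0.749 CPM. Without IL-2 no library overlapped between the groups, and Egr3 was 9.72-fold lower in acid (-3.28 ± 0.41, edgeR adjusted p = 2.38e-08). With IL-2 the fall of 0.82 ± 0.38 was at the threshold (adjusted p = 0.0486), in 4 of 5 pairs. That call was lost without replicate 1, 2 or 3 (0.116, 0.305 and 0.121), with RLE scaling (0.065), with the looser filter (0.059), without the replicate block (0.0652), in the fit of the 2 groups alone (0.0642) and without the 0 h libraries (0.051). The 2 acid effects differed by 2.46 ± 0.59 (adjusted p = 0.000465), in 5 of 5 replicates.

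IL-2 had opposite effects on Egr3 at the 2 ends of the pH range. It lowered Egr3 at pH 7.4 in 5 of 5 pairs without overlap (-1.02 ± 0.31, edgeR adjusted p = 0.00378). It raised Egr3 at pH 6.6 in 4 of 5 (1.44 ± 0.50, adjusted p = 0.0329), a call lost without replicate 3, 4 or 5 (0.0786, 0.254 and 0.149). At pH 7 the levels were 0.294 to 1.85 CPM without and 0.994 to 1.84 CPM with IL-2, and the differences from pH 7.4 were -0.58 ± 0.30 and 0.78 ± 0.32 (adjusted p = 0.667 and 0.0847). At 0 h Egr3 was at 0.743, 0.732, 0.472, 0.651 and 0.234 CPM, a highest value 3.17 times the lowest, where that ratio was 9.15 for Egr1 and 10 for Egr2. Egr3 was higher than at 0 h at pH 7.4 without IL-2 in 5 of 5 pairs (1.55 ± 0.33, adjusted p = 9.76e-05) and lower at pH 6.6 without IL-2 in 5 of 5 (-1.73 ± 0.47, adjusted p = 0.00147). The order was pH 7.4 without, pH 7 with, pH 7 without, pH 7.4 with, 0 h, pH 6.6 with and pH 6.6 without IL-2, of which only the last step passed (adjusted p = 0.0329).

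Counted over the 10 genes, the comparisons with 0 h held more lower than higher calls at pH 7.4 with IL-2 and in both groups without IL-2, and the last of these counts did not hold in a fit of its 2 groups alone. At pH 7.4 with IL-2 0 genes were higher and 4 lower (Jun, Junb, Jund and Fosl2), where 29% of tested genes were higher and 30.9% lower. At pH 7.4 without IL-2 1 was higher (Egr3) and 7 lower (all but Fosb and Egr2 of the rest), against 36.9% and 38.3%. At pH 6.6 with IL-2 2 were higher (Fosl2 and Atf3) and 1 lower (Jund), against 30.5% and 38%. At pH 6.6 without IL-2 2 were higher (Fosl2 and Atf3) and 8 lower, against 34.8% and 40.3%. These 4 comparisons share the same 5 libraries at 0 h, and time in culture and the change of medium cannot be told apart in them. In the fit of the 2 groups alone at pH 6.6 without IL-2, Egr3 was not among the genes tested and 3 of the other 9 passed, 2 higher (Fosl2 and Atf3) and 1 lower (Jund), where 66.4% of all tested genes were called. The balance of higher and lower calls thus turned with the libraries in the fit.

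By library-to-library variation the closest pairs of the 10 genes were among Fos, Fosb, Egr1 and Egr2, with Junb close to Egr1. The deviations of log2 CPM from the group means correlated at r = 0.928 for Fos and Fosb, 0.827 for Fos and Egr1, 0.839 for Fosb and Egr1, 0.834 for Egr1 and Egr2, 0.831 for Fosb and Egr2 and 0.808 for Fos and Egr2 over the 35 libraries, which share replicate numbers and scaling. Junb had r = 0.778 with Egr1, 0.585 with Fos, 0.578 with Egr2, 0.576 with Fosb and 0.557 with Jun by this measure. The deviations of Fos and Fosb were widest at 0 h, from -2.17 to 1.58 and from -3.17 to 2.58 log2 units. Correlations without the 0 h libraries were not computed. Over the levels themselves Fosl2 and Egr3 were the most opposed pair (r = -0.779). Outside the 10 genes, the 3 genes with the most similar pattern over the 35 libraries, among the 9007 genes whose log2 CPM averaged 3 or more, were Crem, D16Ertd472e and Bhlhe40 for Fosl2 (r = 0.963, 0.952 and 0.945) and Gpr55, Sytl3 and Dusp3 for Jund (0.965, 0.964 and 0.962). For Atf3 they were Atp6v0e, Mapkapk2 and Dusp4 (0.916, 0.914 and 0.907), and for Junb Ier2, Cd69 and Sh3bp1 (0.932, 0.843 and 0.842). Egr1 and Fos shared the same 3 genes, Plk3, Mafk and Ier2 (0.87, 0.804 and 0.799 for Egr1, and 0.775, 0.754 and 0.748 for Fos). Jun was nearest to Bcl3, Sh3bp1 and Castor1 (0.826, 0.803 and 0.802), and Fosb to Zfp414, Pomgnt1 and Htt (0.774, 0.769 and 0.757). Egr2 was nearest to Cntn1, Firre and Irf1 (0.71, 0.697 and 0.692). Egr3 was nearest to Tgtp1, Tgtp2 and Man2b1 (0.867, 0.854 and 0.851), the first pair being near-identical copies whose counts are uncertain.

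Of the other immediate early genes, a list of 22 of which 18 were tested, more were higher than lower in acid. The list was chosen with earlier results of these data known, so its counts are a description and not independent support. At pH 6.6 with IL-2 13 of 18 were higher and 0 lower, where 35.4% of all tested genes were higher and 40.9% lower, with a median log2 fold change of 0.94 where that of all tested genes was -0.07. Without IL-2 10 were higher and 1 lower, against 31.6% and 35.4% of all tested genes (median 0.52, all genes -0.03). The largest changes with IL-2 were in Klf10, a zinc finger repressor induced by TGF-beta (3.07 ± 0.27, edgeR adjusted p = 2.28e-11), Gadd45b, a stress sensor (2.84 ± 0.20), and Plk2, a kinase (2.68 ± 0.19). Ier5l (2.22 ± 0.25), Btg2, an antiproliferative factor (2.14 ± 0.15), and Zfp36l1, an RNA-binding protein that promotes mRNA decay (2.03 ± 0.14), followed. Without IL-2 the values were 1.73 ± 0.26 for Klf10, 0.84 ± 0.17 for Gadd45b, 2.71 ± 0.19 for Plk2, 1.55 ± 0.24 for Ier5l, 0.54 ± 0.13 for Zfp36l1 and -0.05 ± 0.15 for Btg2, of which all but Btg2 passed (adjusted p = 0.772). At pH 7.4, IL-2 was accompanied by 4 higher and 9 lower genes of this list, against 39.3% and 41.1% of all tested genes.

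The other AP-1 and related leucine zipper genes (13 of 15 tested) split with 5 higher and 4 lower at pH 6.6 with IL-2, and 4 higher and 2 lower without it. The shares of all tested genes were 35.4% higher and 40.9% lower with IL-2 and 31.6% and 35.4% without, so the calls in this list in either direction, 9 of 13 and 6 of 13, were not above that background. Fosl1, the closest relative of Fosl2, went the other way from it with IL-2, at -2.89 ± 0.35 (edgeR adjusted p = 5.52e-09), and was at 0.98 ± 0.71 without IL-2 (adjusted p = 0.226). Batf3, a partner of Jun proteins, was lower with IL-2 (-1.54 ± 0.42) and higher without it (3.76 ± 0.83), as was Maff, a small Maf protein (-0.58 ± 0.12 and 1.10 ± 0.14). Bach2, a repressor that competes for AP-1 sites and holds back effector differentiation, was higher with IL-2 (2.27 ± 0.12, adjusted p = 2.31e-17) and did not pass without it (0.09 ± 0.11, adjusted p = 0.494). Bach1 and Nfe2, of the same CNC group, were at 1.03 ± 0.10 and 2.49 ± 0.48 with IL-2 and at -0.22 ± 0.10 and -0.94 ± 0.28 without.

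The genes that carry signals to immediate early promoters are given against the same shares of all tested genes, 35.4% higher and 40.9% lower at pH 6.6 with IL-2 and 31.6% and 35.4% without. Of serum response factor and its cofactors (6 of 6 tested), 2 were higher and 4 lower with IL-2: Elk4 (1.58 ± 0.09) and Mrtfa (0.50 ± 0.10) rose, and Mrtfb (-0.92 ± 0.13), Elk1 (-0.74 ± 0.11), Srf (-0.47 ± 0.12) and Elk3 (-0.27 ± 0.07) fell (edgeR adjusted p of at most 0.000678). Without IL-2 2 were higher and 3 lower, and Srf did not pass (0.18 ± 0.12, adjusted p = 0.181). Of the MAP kinase genes (17 of 17 tested), 4 were higher and 8 lower with IL-2, and 6 higher and 5 lower without it, which is near the background in number of calls. With IL-2 the largest changes were in Braf (1.19 ± 0.12) and in Mapk8, which encodes the Jun kinase JNK1 (-0.89 ± 0.09, and -0.92 ± 0.09 without IL-2). Map2k1, Rps6ka1 and Map2k4 were lower (-0.67 ± 0.07, -0.62 ± 0.08 and -0.56 ± 0.07) and Map2k7 higher (0.48 ± 0.08). Among partners and proposed targets of EGR proteins (8 of 8 tested), 4 were higher and 2 lower with IL-2, and 4 higher and 1 lower without it. With IL-2 the E3 ligase gene Cblb (1.28 ± 0.08), the checkpoint receptor Lag3 (0.71 ± 0.13), Fasl (0.58 ± 0.12) and the EGR corepressor Nab2 (0.32 ± 0.11) rose, and Tnfrsf9, the costimulatory receptor 4-1BB (-1.64 ± 0.14), and Nab1 (-0.42 ± 0.08) fell. Without IL-2 Tnfrsf9 was instead higher (0.84 ± 0.15, adjusted p = 6.66e-06), and its acid effects differed by -2.48 ± 0.20 (interaction adjusted p = 1.66e-12). Cblb, Lag3 and Nab2 rose there too (0.67 ± 0.08, 0.62 ± 0.13 and 0.63 ± 0.12), while Fasl (0.27 ± 0.12, adjusted p = 0.0562) and Nab1 (-0.11 ± 0.08, adjusted p = 0.245) did not pass.

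Heat shock genes, listed as a sign of handling, moved in both directions at pH 6.6 with IL-2. With IL-2 3 of 8 were higher and 4 lower at pH 6.6, and without IL-2 6 were higher and 0 lower, against 35.4% and 40.9% of all tested genes with IL-2 and 31.6% and 35.4% without. Hspa1a, Hspa1b and Hspb1 rose with IL-2 (5.58 ± 0.76, 4.89 ± 0.69 and 4.67 ± 0.72), the first pair being near-identical copies. In the same comparison Hsp90aa1, Hspe1 and Hsph1 fell (-2.43 ± 0.10, -0.87 ± 0.12 and -0.43 ± 0.10). Without IL-2 the values were 7.25 ± 0.86 for Hspa1a, 4.88 ± 0.65 for Hspa1b and 5.48 ± 0.78 for Hspb1, against pH 7.4 libraries with 0 to 2 reads of Hspa1a, 4 to 13 of Hspa1b and 0 to 1 of Hspb1, so that these fitted values depend on the prior count. These 3 genes were higher in the same pH 6.6 groups as Fosl2 and Atf3, and their part in those results was not tested.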

How the data were processed

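Stranded mRNA libraries of 35 samples were sequenced by the authors as single reads, and the deposited files hold whole-number counts per Ensembl gene for 48709 genes, 1 file per library. The submitters' processing notes name cutadapt 1.8, STAR 2.5.2b, HTSeq 0.6.1 and GRCm38, without roles, and the strand setting of the counting is not given in the sources used here. The closing lines of each file, such as reads in no feature, did not enter library sizes. Reads aligned to several places, which are not counted, came to 32.8% to 48.3%.

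Counts were tested in R 4.3.3 with edgeR 4.0.16 (filterByExpr with a minimum count of 10, TMM factors of 0.926 to 1.08, robust quasi-likelihood F test, two-sided) over all 35 libraries with group and replicate number as terms. All p-values were adjusted by Benjamini-Hochberg over 13819 genes, at a threshold of 0.05. Standard errors were derived from the F statistic, and intervals are at 95%. Log2 CPM used a prior count of 2. Levels per kb used the summed exon length of each gene. Pairs are libraries of the same replicate number. That number was taken as a block because 73 of 75 pairs of 24 h groups had deviations that correlated over 0.1 (median 0.312, and -0.0847 for different numbers). Of the 30 correlations with the 0 h group, 22 were over 0.1.

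The genes, lists and tests were chosen with earlier results of these data known. Every one of the 10 genes is named, and of the other lists up to 6 genes past the threshold with the largest changes at pH 6.6 with IL-2, plus the 3 genes most similar in pattern to each of the 10. Alternatives were RLE scaling, DESeq2 1.42.0, a looser and a stricter filter, only the groups compared, no block, each replicate left out and, added later, no 0 h libraries (13671 genes). Data were simulated for pH 6.6 against pH 7.4 with IL-2 (13425 genes). In them 37 of 50 changes of 0.5 log2 and 50 of 50 of 1 log2 were called, with 4 unchanged genes. In the measured data of this comparison Fosb, at -1.36 ± 0.69, did not pass, so these rates may not hold for genes with so wide a spread.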

Additional observations from a re-analysis of the deposited data

Results flagged for a closer look

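Of the 70 sets of 5 libraries (10 genes in 7 groups), 4 held a library whose distance from the next was over 0.71 of the whole range, the limit at which chance alone marks about 1 set in 20. At pH 6.6 without IL-2, replicate 4 was far above the others for Junb (203 CPM, 0.78 of the range) and for Jund (75.5 CPM, 0.779 of the range). In the same group, Egr3 was highest in replicate 2 (0.261 CPM, 0.723 of the range), from 8 reads. At pH 7 with IL-2, Fosl2 was lowest in replicate 1 (81.4 CPM, 0.71 of the range).

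The acid effect, pH 6.6 against pH 7.4, differed between CTLs with and without IL-2 for 5 genes by the interaction term of the edgeR fit. The effect was more negative with IL-2 by -0.54 for Jund, -0.95 for Fosl2 and -2.72 for Atf3 on the log2 scale. It was more positive with IL-2 by 2.71 for Egr2 and 2.46 for Egr3. No explanation of these values was tested.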

How the results depend on the processing

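Of 150 recomputed counts, 136 stayed within 1.5 times the reported count, and of 1362 recomputed gene values 1206 kept their direction and their side of the threshold, 79 lost the threshold, 38 gained it and 39 changed sign. No called value changed sign. Levels moved by -1.7% to 3.32% with RLE scaling, and all 70 stayed within the spread between replicates. The added fit without the 0 h libraries was chosen after seeing the data. It called 3 of 10 genes for pH 7 with IL-2, where 1 was reported (28.2% of all tested genes). Fits of only the groups compared called 5 there (35.1% of all tested genes), 4 for pH 7 without IL-2 (reported 0, 7.32% of all) and 3 of 9 tested for pH 6.6 without IL-2 against 0 h (reported 10, 66.4% of all), of which 2 were higher and 1 lower. DESeq2 called 1 for pH 7 without IL-2 (2.26% of all). The filter of 10 counts in every library, which removes Egr2, Egr3 and Atf3 from the tests, left 4 calls for pH 6.6 without IL-2 (69.4% of all) and 2 for the interaction (71.3% of all). Without the replicate block, which leaves the shared replicate numbers unmodelled, 0 genes were called for pH 7 with IL-2 (12% of all) and 2 for pH 7.4 with IL-2 against 0 h (54.8% of all). Leaving out 1 replicate number at a time gave 0 to 1 calls for pH 7 with IL-2, 5 to 10 for pH 6.6 without IL-2 against 0 h, and 9 to 13 of 60 neighbouring pairs past the threshold, where 15 were reported.

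The sign changes were all in values that had not passed. Without the replicate block the log2 fold change turned to -0.017 for Atf3 (IL-2 at pH 6.6), 0.15 for Fos and 0.54 for Egr1 (pH 7.4 with IL-2 against 0 h) and 0.37 for Egr2 (pH 6.6 with IL-2 against 0 h). With only the groups compared the last 3 were 0.47, 0.72 and 0.21. The Fosb interaction turned to 0.032 with the stricter filter, 0.042 without the 0 h libraries and 0.087 by DESeq2. Fosb at pH 7.4 with IL-2 against 0 h turned to -0.0063 with the stricter filter and -0.12 by DESeq2. Over the left-out replicates, Fos ranged from -0.44 to 0.0029 (pH 6.6 without IL-2), Jun from -0.048 to 0.077 (pH 7 without IL-2), Egr3 from -0.096 to 0.59 (IL-2 at pH 7) and Atf3 from -0.094 to 0.097 (IL-2 at pH 6.6). The interaction ranged from -0.081 to 0.27 for Fosb and from -0.075 to 0.38 for Junb. Against 0 h at pH 7.4 with IL-2, Fos ranged from -0.66 to 0.52, Fosb from -0.49 to 0.96 and Egr1 from -0.39 to 0.57. Egr2 ranged from -0.22 to 0.70 at pH 7.4 without IL-2. Against 0 h at pH 6.6 with IL-2, Fos ranged from -0.31 to 0.69, Jun from -0.015 to 0.24, Egr1 from -0.0012 to 1.16, Egr2 from -0.77 to 0.72 and Egr3 from -0.73 to 0.11.

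Depth limits Egr2, Egr3 and Atf3 most: Egr3 had 3 to 8 reads a library at pH 6.6 without IL-2 and Atf3 6 to 17 at pH 7.4 without IL-2. The causes of the other changes were not tested.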
